A study of Mus musculus with 9 samples.

Results

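The expression of 10 genes of inflammatory signalling was followed in cultured embryonic mouse heart cells: the chemokines Cxcl1, Cxcl5, Cxcl12, Ccl2 and Ccl7, the cytokines Il6 and Lif, the prostaglandin enzyme Ptgs2, complement C3 and the chemerin receptor Cmklr1. They are 10 of the 43629 genes in the count tables and were chosen by name, with earlier results of these data known. The choice rested on Cxcl1, which stood higher after DNMT3b siRNA than in controls from a low level. Values of the 10 genes in comparisons with the DNMT3b libraries are therefore given as a description, with no p-value, and only DNMT3a siRNA against control is tested for them.

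The cells were ventricle cells of CD-1 mouse embryos at embryonic day 13.5, with all embryos of a litter pooled. Cells that attached quickly to plastic were removed. After 48 h in culture they received 0.012 pmol of negative control siRNA, of a pool of 4 DNMT3a siRNAs or of a pool of 4 DNMT3b siRNAs, with 3 libraries in each group. At 72 h after transfection the cells were sorted with an antibody to VCAM1, which embryonic cardiomyocytes carry on their surface, and poly(A) RNA was sequenced. Every group went through the same culture, lipid transfection and sort, no untransfected group is analysed here, and the libraries are called control, DNMT3a and DNMT3b 1 to 3.

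DNMT3a and DNMT3b are enzymes that place new methyl groups on cytosines, mostly at CpG dinucleotides. Chemokines are small secreted proteins that draw leukocytes along a gradient, and many of them, like Il6 and Ptgs2, are switched on by the transcription factor NF-kB after inflammatory stimuli. C3 is the protein on which the complement pathways converge. In the heart these genes are best known from injury and inflammation, except Cxcl12, which also acts in the development of the coronary vessels.

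Promoter sequence was looked at because the 2 enzymes act on CpG sites and because several of the genes are textbook NF-kB targets. RefSeq promoters (GRCm38.p6, 250 bases before to 50 bases after the annotated start) were matched for 7 of the 10 genes, all but Cxcl5, Ccl2 and Ccl7, and 4 are shown. DNA methylation and factor binding are not analysed here. Cxcl1 (chr5:90890995-90891294, + strand) and Il6 (chr5:30012864-30013163, + strand) have the kappa-B consensus bound by NF-kB in capitals. Lif also holds a match to it and is not shown. C3 (chr17:57228087-57228386, - strand), which differed most between the 2 knockdowns, has its C/EBP match in capitals. Cmklr1 (chr5:113643554-113643853, - strand), lower after both siRNAs, has its CpG dinucleotides in capitals, and its window lies inside the longer gene span of the GENCODE annotation.
Cxcl1: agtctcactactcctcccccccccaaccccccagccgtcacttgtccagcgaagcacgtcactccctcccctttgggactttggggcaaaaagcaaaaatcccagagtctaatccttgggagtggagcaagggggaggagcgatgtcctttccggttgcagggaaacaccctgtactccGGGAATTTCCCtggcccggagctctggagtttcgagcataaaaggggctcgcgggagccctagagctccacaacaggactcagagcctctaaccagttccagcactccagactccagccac
Il6: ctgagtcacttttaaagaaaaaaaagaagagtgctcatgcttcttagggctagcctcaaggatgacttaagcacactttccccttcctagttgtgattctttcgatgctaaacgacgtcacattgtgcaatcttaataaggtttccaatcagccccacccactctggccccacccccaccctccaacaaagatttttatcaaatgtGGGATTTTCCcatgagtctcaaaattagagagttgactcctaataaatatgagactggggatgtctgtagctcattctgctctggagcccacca
C3: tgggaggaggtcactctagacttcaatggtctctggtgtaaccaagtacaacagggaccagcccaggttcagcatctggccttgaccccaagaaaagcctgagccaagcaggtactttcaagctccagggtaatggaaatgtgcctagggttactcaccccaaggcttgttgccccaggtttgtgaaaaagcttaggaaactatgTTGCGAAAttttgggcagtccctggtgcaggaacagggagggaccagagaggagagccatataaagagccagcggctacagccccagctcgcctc
Cmklr1: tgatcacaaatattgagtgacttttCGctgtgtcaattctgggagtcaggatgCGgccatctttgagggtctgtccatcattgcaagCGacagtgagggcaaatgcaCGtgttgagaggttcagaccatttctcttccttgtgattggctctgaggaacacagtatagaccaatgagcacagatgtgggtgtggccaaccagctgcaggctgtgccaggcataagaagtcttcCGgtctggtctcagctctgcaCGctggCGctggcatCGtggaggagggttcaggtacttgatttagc

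The kappa-B consensus was found in 3 of the 7 promoters on either strand. In Cxcl1 there were 2 overlapping matches, which began 71 and 70 bases before the annotated start. The Il6 match began 44 bases before the start and that of Lif 178 bases before it. Of all 32851 promoters of the same length, 8.46% held a match. The AP-1 motif TGANTCA (7.81% of all promoters) stood in Il6 and Lif, the C/EBP motif TTGCNNAA (10.8%) in Ptgs2, Il6 and C3, and the STAT motif TTCNNNGAA (8.30%) in none of the 7. CpG dinucleotides numbered 20 in the Cxcl12 promoter, 16 in Ptgs2, 10 in Cxcl1, 8 in Cmklr1, 7 in Lif and 3 each in Il6 and C3, against a median of 7 over all promoters. A match is a description of the letters and not a shown binding site. Of the genes with a kappa-B match, Cxcl1, Lif and Il6 had means after DNMT3b siRNA of 4.54-fold, 1.20-fold and 1.16-fold that of controls. The part of the motif in these levels was not tested.

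Gene counts per library ran from 27852412 to 35896018, and values below are given in CPM, counts per 1e6 after TMM scaling, as the mean ± SD of 3 libraries. The targets checked the labels. In controls Dnmt3a had 259 ± 23.2 CPM, against 46.5 ± 6.32 CPM with its own siRNA, and Dnmt3b had 4.30 ± 0.0372 CPM, against 1.70 ± 0.652 CPM with its own, so Dnmt3b had little RNA to begin with. Dnmt3a fell by 2.48 ± 0.11 on the log2 scale (SE; adjusted p = 3.4e-06, edgeR's quasi-likelihood test), and Dnmt3b fell by 1.34 ± 0.23 (adjusted p = 0.00816, and 0.0538 without DNMT3b 3). Control 2 and DNMT3a 2 stood apart from the other libraries of their groups on the first principal component, so counts that moved most are also given without all libraries numbered 2. The labelled cell type was checked against marker lists: the 12 cardiomyocyte markers summed to 2316 to 3018 CPM in the control libraries, 5171 to 6891 in the DNMT3a libraries and 6662 to 7937 in the DNMT3b libraries, and 9 and 10 of the 12 rose with the DNMT3a and DNMT3b siRNAs. Over all genes, 4.87% and 3.52% rose with these siRNAs. The 12 fibroblast markers summed to between 39914 and 60514 CPM over all libraries, above the cardiomyocyte sum in every library. By these lists the sorted cells held more fibroblast than cardiomyocyte marker RNA. In bulk samples, fewer cells of a type and less RNA per cell cannot be told apart.

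Per length, the 10 genes spanned more than 3 orders of magnitude in control cells. Mean levels per kilobase of exon were 187 ± 60.4 CPM for Cxcl12, 38.2 ± 8.42 for Ccl2, 20.1 ± 7.84 for Ccl7, 12.3 ± 5.95 for Ptgs2 and 10.4 ± 4.41 for C3. They were 7.08 ± 1.05 for Lif, 7.0 ± 0.423 for Cmklr1, 1.32 ± 0.276 for Il6, 0.423 ± 0.0763 for Cxcl1 and 0.0697 ± 0.0312 for Cxcl5. Cxcl12 was therefore a major transcript, above 99.2% of the genes tested, while Cxcl1 was above 16.7% of them. Neighbours in the run from Ccl7 through Ptgs2, C3 and Lif to Cmklr1 overlapped between libraries, and the other neighbours did not.

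**Figure D1:**
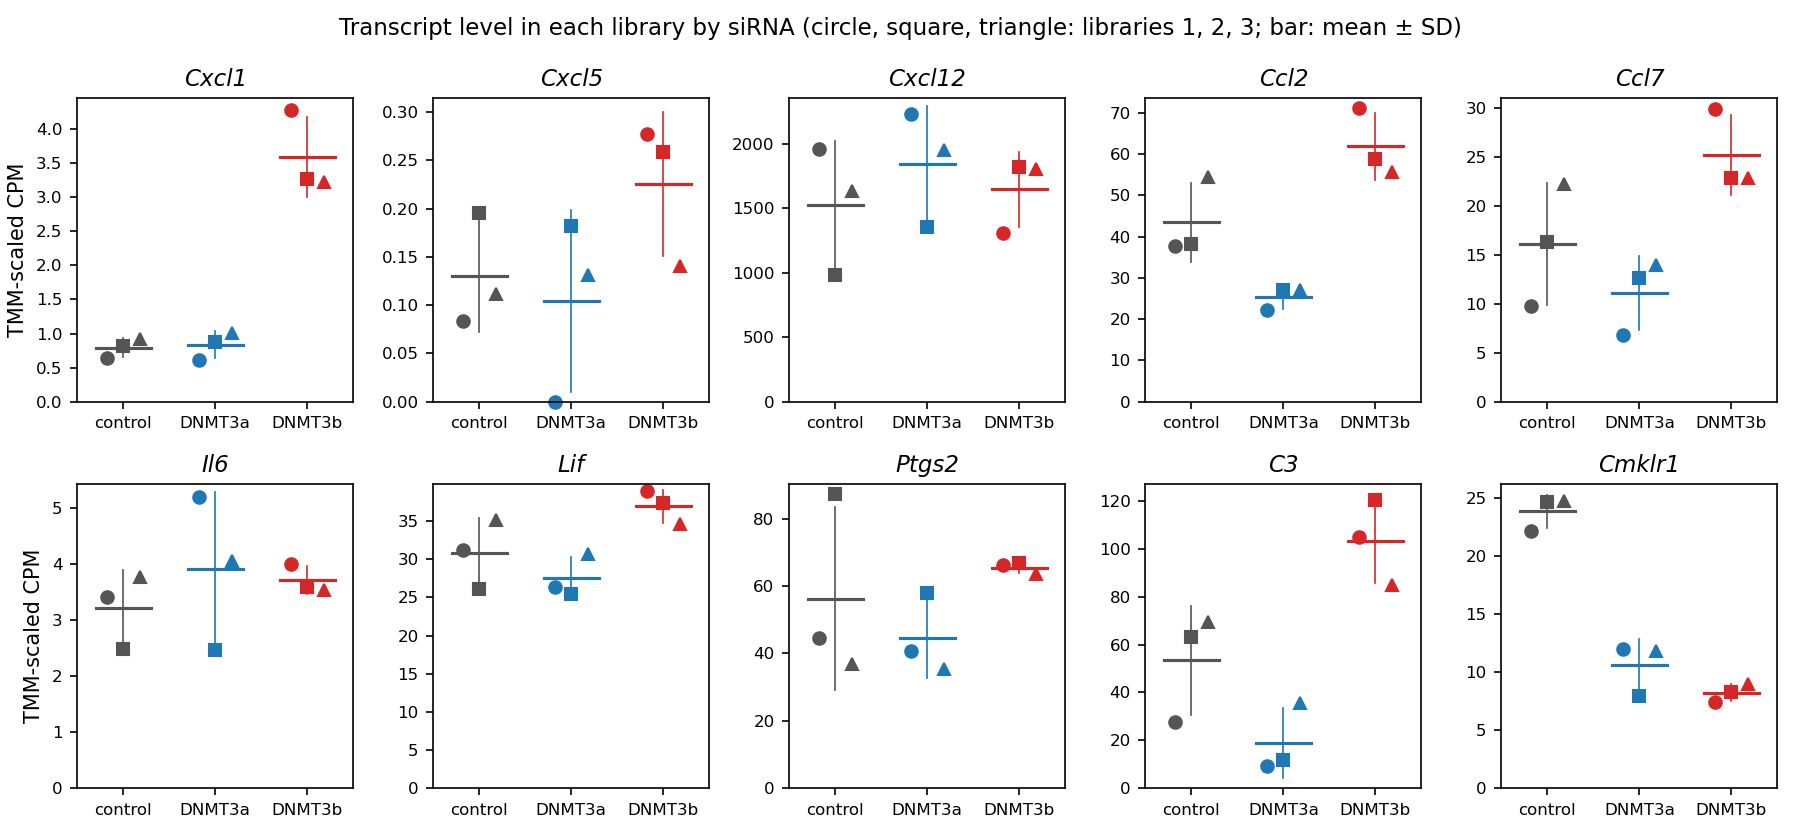
TMM-scaled CPM (linear axis from 0) of each of the 10 genes in the 9 libraries, by siRNA; symbols are libraries 1 to 3, horizontal bars the mean of 3 and vertical lines the SD. Cxcl1 lay between 3.22 and 4.27 CPM after DNMT3b siRNA and at 1.01 CPM or below in the 6 other libraries, and Cmklr1 lay at 11.9 CPM or below after either siRNA and at 22.2 CPM or above in controls.

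Cxcl1 and Cxcl5 attract neutrophils and lie in the same chemokine cluster. Cxcl1 (ENSMUSG00000029380, chr5:90891241-90893115, + strand) had 0.641, 0.813 and 0.925 CPM in control 1, 2 and 3, 0.617, 0.879 and 1.01 CPM in the DNMT3a libraries and 4.27, 3.27 and 3.22 CPM in the DNMT3b libraries. All 3 DNMT3b libraries were above all others, and the control and DNMT3a libraries overlapped. Behind these levels were 19 to 31 counts in each control or DNMT3a library and 92 to 139 counts in each DNMT3b library. The mean after DNMT3b siRNA was 4.54-fold that of controls (log2 2.18 ± 0.26) and 4.28-fold that after DNMT3a siRNA (log2 2.10 ± 0.26). With DNMT3a siRNA the difference from control was 0.09 ± 0.27 on the log2 scale and did not pass the test (adjusted p = 0.893), and it turned to -0.072 without DNMT3a 3 and -0.052 without control 1. Even at 3.59 ± 0.593 CPM after DNMT3b siRNA, Cxcl1 stood at 1.91 CPM per kilobase, below every other gene of the group in the same libraries except Il6 and Cxcl5. The 12 endothelial and endocardial markers, cells that also make chemokines, summed to 110 to 151 CPM in the control libraries, 93.7 to 152 in the DNMT3a libraries and 184 to 192 in the DNMT3b libraries. Of 11 tested 1 rose after DNMT3b siRNA and 0 fell, beside 3.52% of all genes higher and 2.12% lower. Without all libraries numbered 2, 6 rose and 0 fell. Higher without overlap were 8, beside 26.1% of all genes without overlap in either direction. Cldn5 had a count of 0 in at least 1 library, and the part of these markers in the Cxcl1 level was not tested.

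Cxcl5 (ENSMUSG00000029371, chr5:90759360-90761624, + strand) was almost silent and did not pass the filter on low counts. It had 3, 6 and 3 counts in the controls, 0, 6 and 4 counts in the DNMT3a libraries and 9, 8 and 4 counts in the DNMT3b libraries, 43 in all. The groups overlapped, and the count of 0 in DNMT3a 1 allows up to 3 counts. The other chemokine genes of the cluster, Ppbp, Pf4, Cxcl3, Cxcl15 and Cxcl2, were also below the filter, with 4 to 36 counts over the 9 libraries. Cxcl2, another neutrophil chemokine whose start lies 12.6 kb from that of Cxcl1, had means of 0.0695, 0.0646 and 0.240 CPM in the control, DNMT3a and DNMT3b groups from 34 counts in all. Its counts were 0, 3 and 3 in the controls, 0, 1 and 5 in the DNMT3a libraries and 6, 9 and 7 in the DNMT3b libraries. The DNMT3b libraries were thus above all others. Of all genes tested, 26.1% and 32.3% did not overlap between DNMT3b siRNA and control or DNMT3a siRNA. The 3 tested genes that flank the cluster, Rassf6, Mthfd2l and Ereg, did not pass the test in any comparison, with log2 differences of 0.17 ± 0.29, 0.24 ± 0.14 and -0.09 ± 0.15 between DNMT3b siRNA and control. Ereg, a growth factor, was the nearest to the threshold, at -0.52 ± 0.15 after DNMT3a siRNA (adjusted p = 0.0508), and passed in 6 of 18 alternatives, among them the block on library number (0.0300), leaving out control 2 (0.0383) and no filter on low counts (0.00517 with Ereg at -0.532). These cluster genes were named for their position, with their values known.

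**Figure D2:**
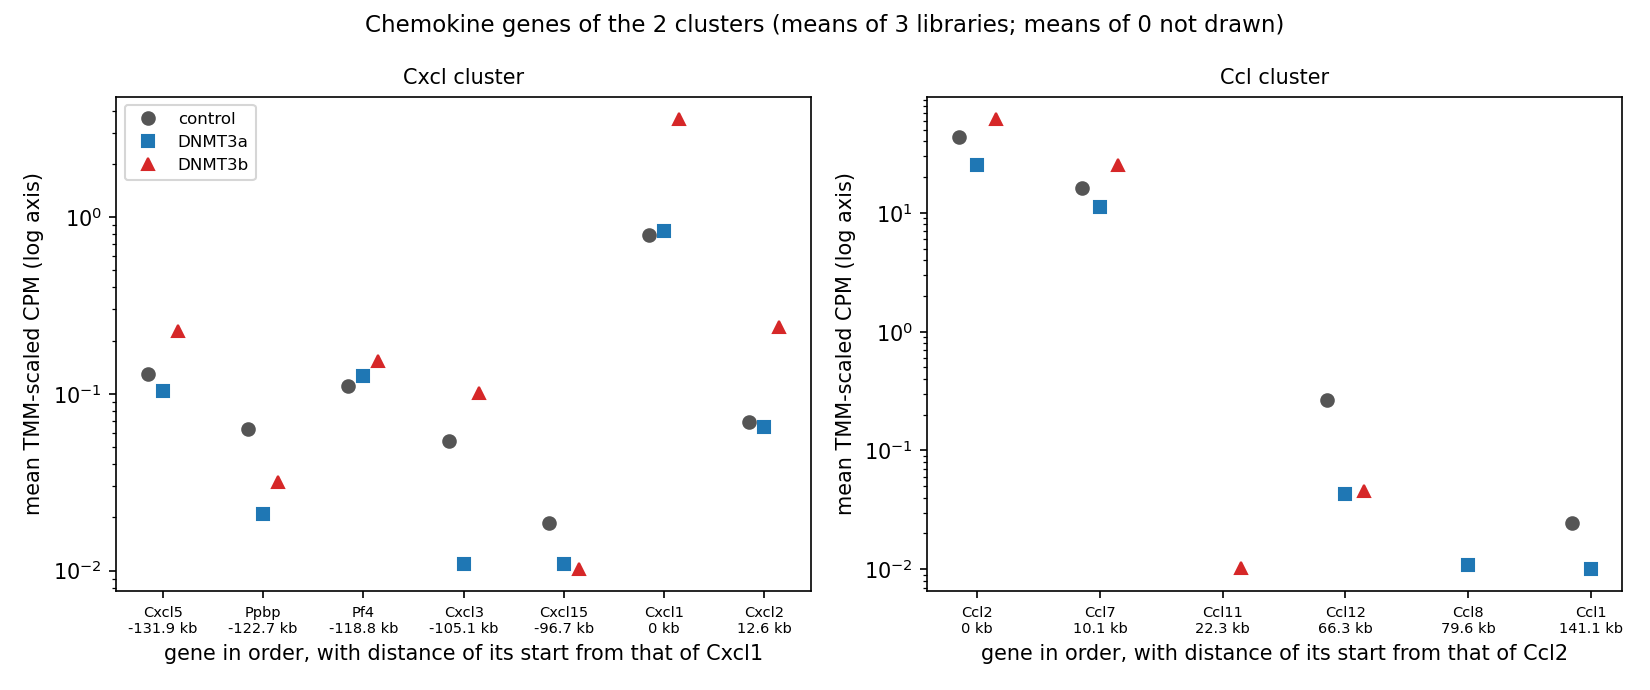
Mean TMM-scaled CPM (log axis, 3 libraries each; groups with a mean of 0 are not drawn) of the chemokine genes in the Cxcl cluster and the Ccl cluster in genomic order, with the distance of each start from that of Cxcl1 or Ccl2. Cxcl1, Ccl2 and Ccl7 passed the filter on low counts, and the other genes drawn have 43 counts or fewer over the 9 libraries.

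Ccl2 and Ccl7 attract monocytes and are neighbours in the Ccl cluster. Ccl2 (ENSMUSG00000035385, chr11:82035571-82037453, + strand) had 37.6, 38.2 and 54.5 CPM in the controls, 22.1, 27.0 and 27.1 CPM in the DNMT3a libraries and 71.1, 58.8 and 55.6 CPM in the DNMT3b libraries. The 3 groups did not overlap anywhere, with DNMT3a lowest and DNMT3b highest. Ccl2 fell by 0.77 ± 0.16 on the log2 scale after DNMT3a siRNA, from 43.5 ± 9.59 to 25.4 ± 2.87 CPM or 1.71-fold (adjusted p = 0.0123), lower in 3 of 3 libraries. The fall passed the threshold in 17 of 18 alternatives and missed it without DNMT3a 1 (adjusted p = 0.0542). After DNMT3b siRNA the mean was 61.8 ± 8.21 CPM, which is 0.51 ± 0.16 above control and 1.28 ± 0.16 above DNMT3a siRNA on the log2 scale.

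Ccl7 (ENSMUSG00000035373, chr11:82045712-82047525, + strand), whose start lies 10.1 kb from that of Ccl2, followed the same order of group means with more spread. It had 9.75, 16.3 and 22.3 CPM in the controls, 6.85, 12.6 and 14.0 CPM in the DNMT3a libraries and 29.9, 22.9 and 22.9 CPM in the DNMT3b libraries. The DNMT3b libraries were above all others, and the DNMT3a and control libraries overlapped, although each DNMT3a library was below the control of its number. The difference after DNMT3a siRNA was -0.53 ± 0.33 on the log2 scale and did not pass the test (adjusted p = 0.385). The mean after DNMT3b siRNA was 0.65 ± 0.33 above control and 1.18 ± 0.33 above DNMT3a siRNA. The other chemokine genes of this cluster, Ccl11, Ccl12, Ccl8 and Ccl1, were below the filter with 1 to 31 counts over the 9 libraries.

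Cxcl12 (ENSMUSG00000061353, chr6:117168535-117181367, + strand), the ligand of the receptors Cxcr4 and Ackr3, was the most abundant gene of the group per length in every group of libraries. It had 1958, 987 and 1633 CPM in the controls, 2231, 1358 and 1950 CPM in the DNMT3a libraries and 1313, 1819 and 1809 CPM in the DNMT3b libraries. All 3 groups overlapped, and library 2 was the lowest of both the control and the DNMT3a group. The difference was 0.28 ± 0.27 on the log2 scale after DNMT3a siRNA (adjusted p = 0.590, not passed). After DNMT3b siRNA it was 0.11 ± 0.27 against control, and -0.127 without control 2.

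Il6 and Lif are cytokines that signal through the shared receptor subunit Il6st. Il6 (ENSMUSG00000025746, chr5:30013114-30019981, + strand) had 3.40, 2.47 and 3.77 CPM in the controls, 5.2, 2.45 and 4.06 CPM in the DNMT3a libraries and 4.00, 3.59 and 3.54 CPM in the DNMT3b libraries. All groups overlapped, with log2 differences from control of 0.28 ± 0.26 after DNMT3a siRNA (adjusted p = 0.571, not passed) and 0.21 ± 0.26 after DNMT3b siRNA. Il6 thus overlapped its controls in the libraries where Cxcl1 stood 4.54-fold higher. A test of the difference between the 2 genes was not run.

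Lif (ENSMUSG00000034394, chr11:4257557-4272514, + strand), known for keeping mouse stem cells undifferentiated, had 31.2, 26.0 and 35.2 CPM in the controls, 26.4, 25.4 and 30.8 CPM in the DNMT3a libraries and 38.9, 37.3 and 34.7 CPM in the DNMT3b libraries. The DNMT3b libraries were above all DNMT3a libraries but overlapped with the controls. After DNMT3a siRNA the difference was -0.16 ± 0.12 on the log2 scale and did not pass the test (adjusted p = 0.457). The DNMT3b mean was 0.26 ± 0.12 above control and 0.43 ± 0.12 above DNMT3a siRNA.

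Ptgs2 (ENSMUSG00000032487, chr1:150100031-150108227, + strand) encodes the inducible cyclooxygenase, which starts prostaglandin synthesis. It had 44.6, 87.4 and 36.8 CPM in the controls, 40.6, 58.0 and 35.3 CPM in the DNMT3a libraries and 66.2, 66.8 and 63.7 CPM in the DNMT3b libraries. Library 2 was the highest of the control and DNMT3a groups, where Cxcl12 was lowest, and the DNMT3b libraries were above all DNMT3a libraries. The difference after DNMT3a siRNA was -0.33 ± 0.32 on the log2 scale (adjusted p = 0.586, not passed), and 0.132 without control 2. After DNMT3b siRNA it was 0.22 ± 0.32 against control, and the value ran from -0.011 without control 3 to 0.684 without control 2, so its sign and size depended on single control libraries.

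C3 (ENSMUSG00000024164, chr17:57203970-57228136, - strand), the central complement protein, had 27.4, 63.3 and 69.4 CPM in the controls, 8.99, 11.5 and 35.6 CPM in the DNMT3a libraries and 105, 121 and 85.1 CPM in the DNMT3b libraries. The DNMT3b libraries were above all others, DNMT3a 3 was above control 1, and each DNMT3a library was below the control of its number. The control, DNMT3a and DNMT3b groups had means of 53.4 ± 22.7, 18.7 ± 14.7 and 104 ± 17.7 CPM. The difference after DNMT3a siRNA was -1.51 ± 0.57 on the log2 scale and did not pass the test (adjusted p = 0.157). Without DNMT3a 3 it was -2.38 and passed (adjusted p = 0.0248), the single one of 18 alternatives in which it did. Between the 2 knockdowns C3 had the largest difference of the 9 genes tested, 5.54-fold or 2.47 ± 0.59 on the log2 scale, and it was 0.96 ± 0.56 above control after DNMT3b siRNA. The difference between the knockdowns ran from 2.136 without DNMT3a 1 to 3.335 without DNMT3a 3 on the log2 scale, so its size depended on single DNMT3a libraries.

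Macrophages make complement proteins and chemokines, so their markers are set beside these values. The 18 macrophage and leukocyte markers summed to 28.3, 71.7 and 78.8 CPM in the controls, 9.55, 22.4 and 23.2 CPM in the DNMT3a libraries and 24.9, 45.8 and 60.1 CPM in the DNMT3b libraries. Their sums did not overlap between DNMT3a siRNA and control, and those of the DNMT3b libraries overlapped with the controls. In DNMT3a siRNA against control 4 of the 17 tested markers fell and none rose, beside 5.22% of all genes lower and 4.87% higher. Under the replicate block 15 fell, and 0 passed without all libraries numbered 2. After DNMT3b siRNA 15 of the 17 had a log2 difference from control below 0, with a median of -0.78. Of these 0 passed the test, and 4 fell under the replicate block. Between the knockdowns 16 of the 17 had a log2 difference above 0 and 1 below, with a median of 1.195, against -0.011 over all genes. In that comparison 0 passed the test, 11 were higher under the replicate block and 0 passed without all libraries numbered 2. Fcgr1 and Cd163 had a count of 0 in at least 1 library. The part of the macrophage and leukocyte markers in the Ccl2 and C3 levels was not tested.

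Cmklr1 (ENSMUSG00000042190, chr5:113612354-113650426, - strand), the receptor of the chemoattractant chemerin, was the gene of the group with the clearest difference after DNMT3a siRNA. It had 22.2, 24.6 and 24.7 CPM in the controls, 11.9, 7.91 and 11.8 CPM in the DNMT3a libraries and 7.44, 8.29 and 8.94 CPM in the DNMT3b libraries. All 6 knockdown libraries were below all controls, and the 2 knockdown groups overlapped. Cmklr1 fell by 1.18 ± 0.15 on the log2 scale after DNMT3a siRNA, from 23.8 ± 1.44 to 10.6 ± 2.29 CPM or 2.26-fold (adjusted p = 0.00117). This fall passed the threshold in all 18 alternatives, the highest adjusted p being 0.00847. After DNMT3b siRNA the mean was 8.22 ± 0.752 CPM, 2.90-fold below control (log2 -1.54 ± 0.16), and both comparisons share the same 3 control libraries.

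The other genes of the chemerin system were low. Rarres2, which encodes chemerin itself, had 4.12, 4.01 and 4.95 CPM on average in the control, DNMT3a and DNMT3b groups, and none of Rarres2, Gpr1 and Ccrl2 passed the test in any comparison. The epicardial marker sums moved in the same direction as Cmklr1, with 2252 to 2683 CPM in the control libraries, 1530 to 2079 in the DNMT3a libraries and 1558 to 2190 in the DNMT3b libraries, and 1 of the 10 rose and 3 fell after DNMT3a siRNA while 0 rose and 1 fell after DNMT3b siRNA. Of all genes tested, 10.1% changed after DNMT3a siRNA and 5.64% after DNMT3b siRNA. Without all libraries numbered 2, 1 epicardial marker rose and 1 fell after DNMT3a siRNA. The macrophage and leukocyte sums were also lower after DNMT3a siRNA, at 9.55 to 23.2 CPM against 28.3 to 78.8 CPM in controls. After DNMT3b siRNA they ran from 24.9 to 60.1 CPM and overlapped with controls. The cardiomyocyte sums moved in the opposite direction to Cmklr1. The part of these cell types in the Cmklr1 levels was not tested. An antisense gene, Gm15736, overlaps Cmklr1 without sharing an exon with it, and the strand setting of the counting is not given in the sources used here.

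**Figure D3:**
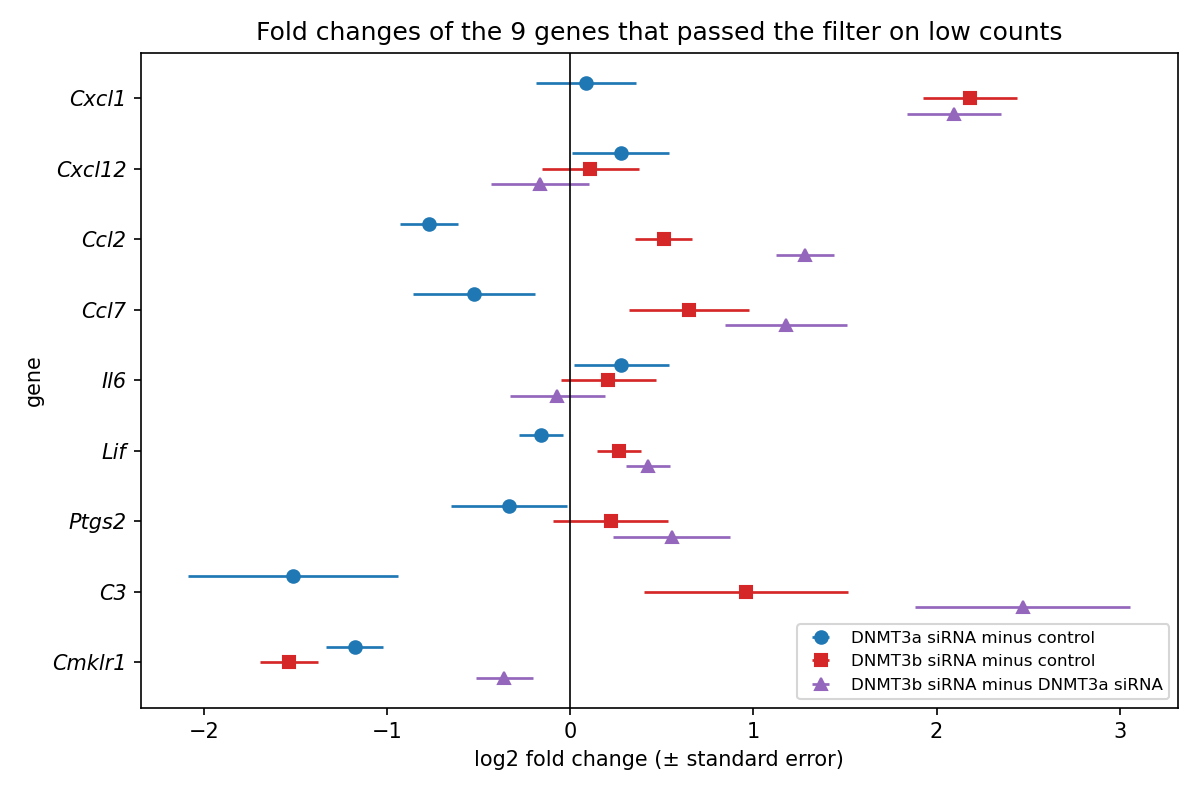
Log2 fold change with its standard error for the 9 genes that passed the filter on low counts, for DNMT3a siRNA minus control (circles), DNMT3b siRNA minus control (squares) and DNMT3b siRNA minus DNMT3a siRNA (triangles). Cmklr1 lies below 0 against control with both siRNAs (-1.18 and -1.54), and Ccl2, Ccl7, Lif, Ptgs2 and C3 lie below 0 with DNMT3a siRNA and above 0 with DNMT3b siRNA.

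Counted over the group, 9 of the 10 genes were tested and Cxcl5 was not. In DNMT3a siRNA against control, 0 rose and 2 fell (Ccl2 and Cmklr1), against 10.1% of all genes tested that changed, 4.87% higher and 5.22% lower. The same 2 were lower without overlap, where 26.7% of all genes had groups that did not overlap. The median log2 difference of the 9 was -0.33, against 0.02 over all genes. Scaling by library size alone moved the share of higher calls over all genes from 48.3% to 61.1% in this comparison and left both calls in place.

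In the comparisons with DNMT3b libraries, which chose the group, overlap and medians are given only as a description, without test calls. In DNMT3b siRNA against control, Cxcl1, Ccl2, Ccl7 and C3 were higher without overlap and Cmklr1 lower, beside 26.1% of all genes. The median of the 9 was 0.26 and that of all genes 0.00. In DNMT3b siRNA against DNMT3a siRNA, Cxcl1, Ccl2, C3 and Lif were past the threshold upward and none downward, beside 9.55% of all genes changed, 5.08% higher and 4.47% lower. The same 4 with Ccl7 and Ptgs2 were higher without overlap, beside 32.3% of all genes, and the median of the 9 was 0.55 against -0.01. The count of 4 was 2 without DNMT3a 1 or without any 1 of the DNMT3b libraries. Nothing is read from these counts about the group, since DNMT3b libraries chose it.

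Over the 9 libraries, C3, Ccl2 and Ccl7 had the most similar profiles of log2 CPM. Pearson's r was 0.908 for C3 and Ccl2, 0.902 for C3 and Ccl7 and 0.898 for Ccl2 and Ccl7. Lif followed Ccl2 (r = 0.869) and Cxcl1 followed Ccl7 (r = 0.818). Ptgs2 and Cxcl12 were opposed (r = -0.716), Il6 went with Cxcl12 (r = 0.745), and Cmklr1 was not close to any other gene of the group, with values from -0.660 with Cxcl1 to -0.0263 with C3. These correlations describe 9 points that share the 3 groups and the library numbers.

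Among 13867 genes with a mean of at least 1 CPM, the profiles most like that of Cxcl1 were Mosmo (r = 0.975), Cx3cl1 (r = 0.961) and Kpna1 (r = 0.958). For C3 they were Slc39a4, Tnfaip2 and Pcyox1 (r = 0.975, 0.975 and 0.970). For Ccl2 they were Fbxw11, Psmd11 and Psen2 (r = 0.986, 0.978 and 0.975), and for Ccl7 Rbfox2, Ch25h and Mark1 (r = 0.971, 0.971 and 0.959). For Cmklr1 they were Rab3il1, Hfe and Fam120a (r = 0.976, 0.955 and 0.953), and for Il6 Ythdf1, Lacc1 and Trib1 (r = 0.972, 0.943 and 0.941). Those for Lif were Map3k7, Ahcy and Cnpy4 (r = 0.958, 0.955 and 0.950). Cxcl12 was followed by Ano1, Hoxa5 and Fryl (r = 0.952, 0.947 and 0.941) and Ptgs2 by Kdelr3, Pdzrn3 and Rps10-ps2 (r = 0.969, 0.968 and 0.967). These rankings rest on the same 9 libraries, including the DNMT3b libraries that chose the group, and are a description.

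The wider pathways were counted over 181 other genes in 9 lists, of which 128 were tested. In DNMT3a siRNA against control, 5 of these rose and 12 fell, 13.3% of the 128, and 6 rose and 26 fell with the library number as a block. In DNMT3b siRNA against control 6 rose and 3 fell, 7.03% of the 128, and without all libraries numbered 2 the counts were 6 and 14. Between the 2 knockdowns 13 were higher after DNMT3b siRNA and 6 lower, 14.8% of the 128, and without all libraries numbered 2 they were 8 and 11, so the balance of directions turned. Median log2 differences of the 128 were -0.19, -0.12 and 0.06 in the 3 comparisons. Over all genes tested, 10.1%, 5.64% and 9.55% changed in the same 3 comparisons. The counts of single lists below are to be read beside these shares.

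**Figure D4:**
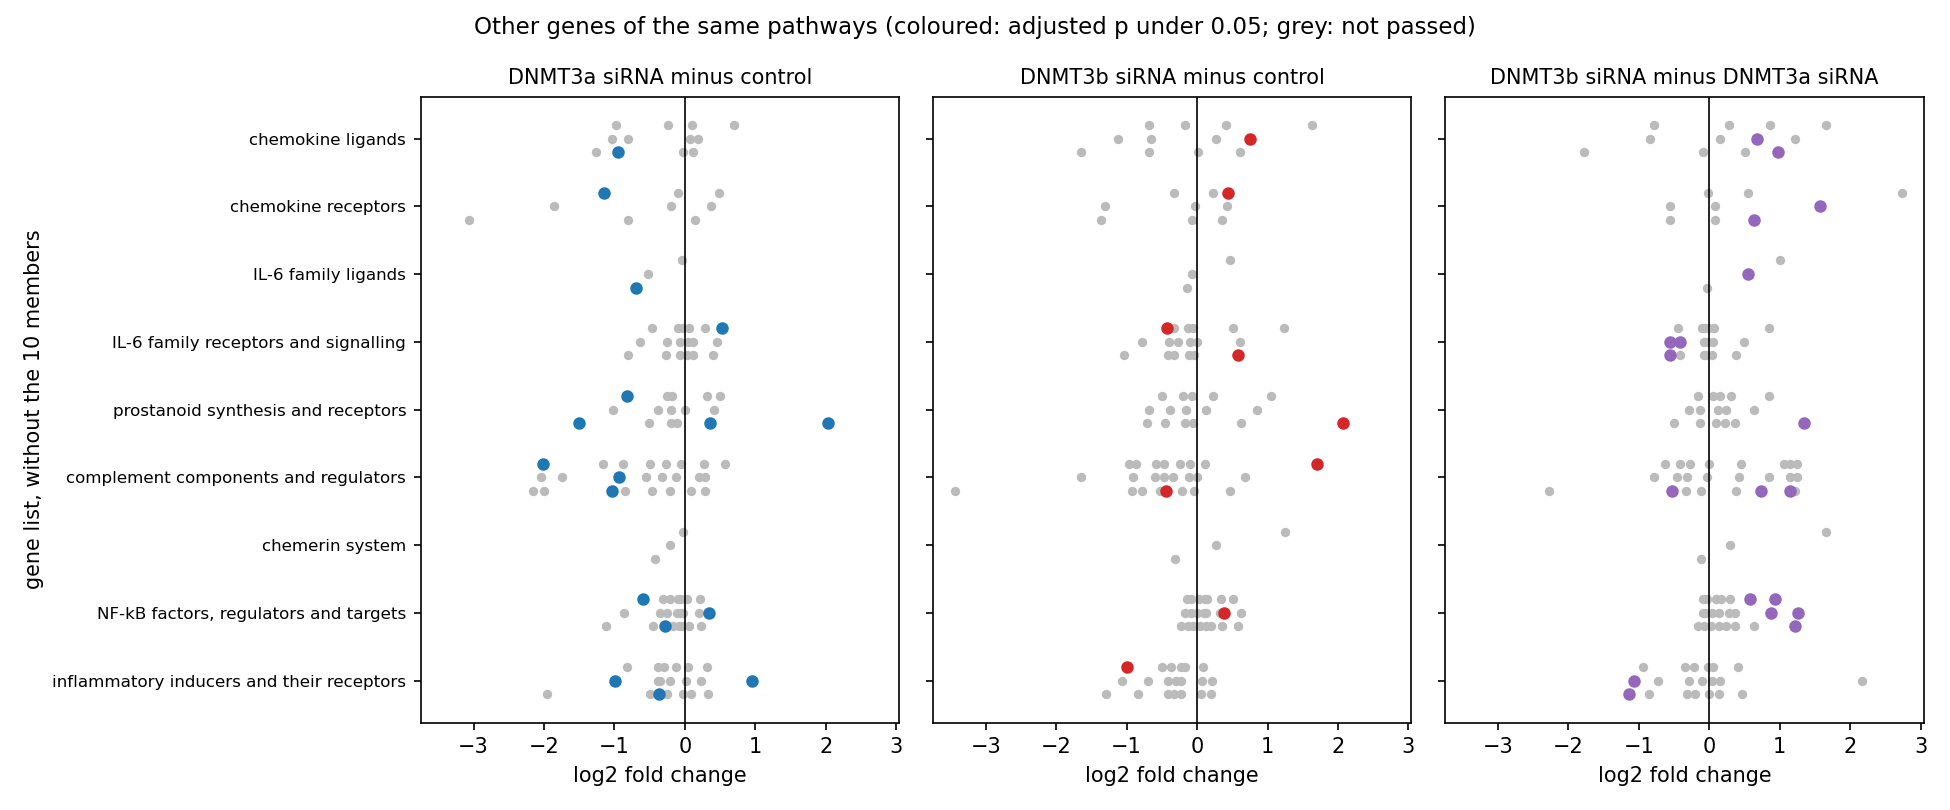
Log2 fold change (horizontal axis) of each tested gene of the 9 pathway lists, without the 10 genes themselves, in the 3 comparisons; coloured points passed an adjusted p under 0.05 and grey points did not. In the list of NF-kB factors, regulators and targets, the 5 coloured points of DNMT3b siRNA minus DNMT3a siRNA all lie above 0.

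Among 31 other chemokine ligands, 12 were tested. Cx3cl1, a membrane-bound chemokine, rose after DNMT3b siRNA by 0.75 ± 0.09 on the log2 scale, from 19.4 ± 0.991 to 32.8 ± 1.93 CPM (adjusted p = 8.0e-04), in all 18 alternatives. Cxcl16, another membrane-bound ligand, fell after DNMT3a siRNA by 0.95 ± 0.14 from 15.4 ± 1.85 to 7.96 ± 1.02 CPM (adjusted p = 0.0020, in all 18 alternatives). It stood at 15.6 ± 1.58 CPM after DNMT3b siRNA, and both ligands were higher there than after DNMT3a siRNA (log2 0.68 ± 0.09 and 0.97 ± 0.14, adjusted p = 0.00137 and 0.00257). With the library number as a block, 2 ligands fell after DNMT3a siRNA. The second was Cxcl10, an interferon-induced chemokine named after its values were seen, at -0.97 ± 0.67 on the log2 scale (adjusted p = 0.436, and 0.0494 with the block), with groups that overlapped.

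Of 22 chemokine receptors, 9 were tested. Cxcr4 fell after DNMT3a siRNA by 1.15 ± 0.29 on the log2 scale, from 1.64 ± 0.301 to 0.735 ± 0.151 CPM (adjusted p = 0.0296), and missed the threshold without any 1 of the DNMT3a libraries, control 1 or control 3 (up to 0.0988). It was 1.57 ± 0.29 higher after DNMT3b than after DNMT3a siRNA (adjusted p = 0.00836, and 0.0503 without all libraries numbered 2). Ackr3, which removes Cxcl12 from the surroundings of a cell, rose after DNMT3b siRNA by 0.44 ± 0.10, from 11.1 ± 0.720 to 15.1 ± 0.614 CPM (adjusted p = 0.0290). That call was lost without any 1 of DNMT3a 1, DNMT3b 2, DNMT3b 3, control 1 or control 3 (up to 0.156), but Ackr3 was also 0.64 ± 0.10 above its level after DNMT3a siRNA in all 18 alternatives (adjusted p = 0.0046). With the library number as a block, 3 receptors fell after DNMT3a siRNA. Beside Cxcr4 these were Ccr1 and Cx3cr1, named after their values were seen, at -3.07 ± 0.90 and -1.85 ± 0.89 on the log2 scale (adjusted p = 0.0567 and 0.243, and 0.0177 and 0.00144 with the block). Ccr1 rests on 3, 18 and 14 counts in the controls and 0, 1 and 3 counts in the DNMT3a libraries. Both genes had groups that overlapped, and Cx3cr1 is also one of the macrophage markers. Cxcr2 and Ccr2, the receptors of Cxcl1 and Ccl2, named here after their values were seen, were below the filter with means of 0.101 CPM or lower in every group.

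Of 7 other IL-6 family ligands 3 were tested, and Ctf1 (cardiotrophin) fell after DNMT3a siRNA by 0.69 ± 0.13 on the log2 scale, from 11.9 ± 1.58 to 7.37 ± 0.432 CPM (adjusted p = 0.0067, in all 18 alternatives). It was 0.55 ± 0.13 higher after DNMT3b than after DNMT3a siRNA (adjusted p = 0.0222), which was lost without DNMT3a 1, DNMT3a 3 or any 1 of the DNMT3b libraries (up to 0.0907). Of 18 receptor and signalling genes, all tested, Cish, an inhibitor of cytokine signalling, rose with both siRNAs, by 0.52 ± 0.09 and 0.58 ± 0.09 from 14.3 ± 0.860 CPM (adjusted p = 0.0062 and 0.0055). Both rises passed in all 18 alternatives, and they share their controls. Osmr, the oncostatin M receptor, fell after DNMT3b siRNA by 0.43 ± 0.10, from 203 ± 22.2 to 151 ± 12.3 CPM (adjusted p = 0.0299), and missed the threshold without any 1 of DNMT3b 2, DNMT3b 3, control 1 or control 3 (up to 0.139).

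Between the knockdowns Pias3, an inhibitor of Stat3, was 0.55 ± 0.10 lower after DNMT3b than after DNMT3a siRNA on the log2 scale (adjusted p = 0.0086, in all 18 alternatives). Osmr and Il6st were lower by 0.41 ± 0.10 and 0.56 ± 0.14 (log2 -0.41 and -0.56; adjusted p = 0.0290 and 0.0337). Both missed the threshold without DNMT3a 1, DNMT3a 3, DNMT3b 2 or DNMT3b 3, and Il6st also without DNMT3b 1 (up to 0.133 and 0.117). The receptors Il6ra and Lifr, named after their values were seen, did not pass the test in any comparison, with 7.40, 4.22 and 4.31 CPM and with 88.5, 74.3 and 70.4 CPM in the control, DNMT3a and DNMT3b groups. Il6ra was -0.81 ± 0.34 after DNMT3a siRNA (adjusted p = 0.172), and passed with the library number as a block (0.0349), without control 2 (0.0232) and without all libraries numbered 2. With the block 2 genes of this list rose after DNMT3a siRNA, Cish and Il6st, and 1 fell, Il6ra. After DNMT3b siRNA 1 rose and 1 fell, and without all libraries numbered 2 the counts were 1 and 3. After DNMT3b siRNA Il6ra and Lifr passed without control 2 (adjusted p = 0.0278 and 0.0364).

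In the prostanoid list 16 of 19 genes were tested. Ptgs1, the constitutive cyclooxygenase, fell after DNMT3a siRNA by 1.51 ± 0.13 on the log2 scale, from 167 ± 19.6 to 58.8 ± 9.96 CPM (adjusted p = 1.1e-04), and stood at 149 ± 10.6 CPM after DNMT3b siRNA. It was 1.34 ± 0.13 higher after DNMT3b than after DNMT3a siRNA (adjusted p = 4.5e-04), and both calls held in all 18 alternatives, whereas its inducible counterpart Ptgs2 passed no test after DNMT3a siRNA. Ptgds, a prostaglandin D synthase, rose with both siRNAs from 0.312 ± 0.181 CPM, to 1.28 ± 0.209 and 1.32 ± 0.160 CPM (log2 2.02 ± 0.37 and 2.07 ± 0.37, adjusted p = 0.0067 and 0.0088), in all 18 alternatives each. Ptger4, a prostaglandin E receptor, fell after DNMT3a siRNA by 0.82 ± 0.17 (adjusted p = 0.0132, and 0.0521 without DNMT3a 3). Ptges2, a prostaglandin E synthase, rose by 0.35 ± 0.10 (adjusted p = 0.0440) and missed the threshold when any 1 library other than DNMT3a 3 was left out (up to 0.147).

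In the complement list 24 of 33 genes other than C3 were tested. After DNMT3a siRNA 0 rose and 3 fell, and 7 fell with the library number as a block. The list shares C1qa, C1qb and C1qc with the macrophage markers, whose sum was lower in these libraries, and their part was not tested. Serping1, the inhibitor of the first complement component, fell by 1.03 ± 0.15 on the log2 scale, from 338 ± 56.4 to 165 ± 16.5 CPM (adjusted p = 0.0027, in all 18 alternatives). The receptor C5ar1 fell by 2.02 ± 0.48 from 2.26 ± 1.33 CPM (adjusted p = 0.0248) and C2 by 0.94 ± 0.25 from 3.67 ± 0.927 CPM (adjusted p = 0.0401). C5ar1 missed the threshold without any 1 of the DNMT3a libraries or control 3 (up to 0.0966), and C2 without any 1 library other than DNMT3a 2 and control 2 (up to 0.141).

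After DNMT3b siRNA 1 of the 24 complement genes rose and 1 fell; without all libraries numbered 2 the counts were 1 and 3. Clu (clusterin), which blocks assembly of the terminal complement complex, rose by 1.71 ± 0.24 on the log2 scale, from 337 ± 120 to 1101 ± 91.9 CPM (adjusted p = 0.0043, in all 18 alternatives). Cr1l, a membrane regulator of C3 activation, fell by 0.44 ± 0.08 (adjusted p = 0.0123) and missed the threshold without DNMT3b 2, DNMT3b 3 or control 3 (up to 0.0722). Against DNMT3a siRNA, Clu was higher by 1.14 ± 0.23 (adjusted p = 0.0177), Cfi, a protease that inactivates C3b, by 0.73 ± 0.20 (adjusted p = 0.0432), and Cr1l was lower (log2 -0.53 ± 0.08, adjusted p = 0.0046, in all 18 alternatives). The calls of Clu and Cfi were lost without DNMT3a 1 and several other libraries (adjusted p up to 0.0780 and 0.149).

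In the list of NF-kB factors, regulators and targets 23 of 24 genes were tested. Between the knockdowns 5 were higher after DNMT3b siRNA and 0 lower, and 2 and 0 without all libraries numbered 2. Tnfaip3 and Nfkbia, which restrain NF-kB and are induced by it, were higher by 0.93 ± 0.17 and 0.88 ± 0.17 on the log2 scale (adjusted p = 0.0095 and 0.0113), Tnfaip3 in all 18 alternatives and Nfkbia in all but 1 (0.0553 without DNMT3b 2). Tnfaip3 had 16.1 ± 3.68, 12.6 ± 2.23 and 24.0 ± 1.15 CPM in the control, DNMT3a and DNMT3b groups, and Nfkbia 25.2 ± 6.69, 21.2 ± 0.998 and 39.0 ± 4.22 CPM. Icam1, a leukocyte adhesion receptor, was higher by 1.26 ± 0.31, Tnfaip2 by 1.22 ± 0.32 and the factor Cebpb by 0.58 ± 0.15 (adjusted p = 0.0365, 0.0472 and 0.0415), and the calls of Icam1 and Cebpb were lost without any 1 of the 6 knockdown libraries (up to 0.105 and 0.154). Tnfaip2 lost its call without any 1 library other than DNMT3a 3 and control 1 (up to 0.151).

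Against control, fewer genes of the NF-kB list passed. After DNMT3a siRNA Nfkbiz fell by 0.59 ± 0.13 and Nfkb1 by 0.28 ± 0.07 on the log2 scale (adjusted p = 0.0160 and 0.0212), and Sod2 rose by 0.34 ± 0.08 (adjusted p = 0.0190); with the block 1 rose and 5 fell. Tnfaip2 was among those 5, at -0.86 ± 0.31 without the block (adjusted p = 0.132, and 0.0154 with it). After DNMT3b siRNA Sod2 rose by 0.38 ± 0.08 (adjusted p = 0.0157). All of these were lost without control 3, with adjusted p from 0.0531 to 0.0705, and also without DNMT3a 3 (Nfkbiz, Nfkb1 and Sod2 after DNMT3a siRNA, 0.0576 to 0.0600), DNMT3a 1 (Nfkb1 and Sod2, 0.0692 and 0.0779), control 1 (Nfkbiz and Nfkb1, 0.0503 and 0.0585) or DNMT3b 3 (Sod2 after DNMT3b siRNA, 0.104). Neither Tnfaip3 nor Nfkbia passed against control.

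Of 24 inflammatory inducers and their receptors, 20 were tested. Il1rap, a subunit of the interleukin-1 receptor, fell with both siRNAs, from 70.6 ± 11.4 CPM to 35.5 ± 6.24 and 35.4 ± 2.33 CPM (log2 -0.992 ± 0.143 and -0.996 ± 0.143, adjusted p = 0.0020 and 0.0030), in all 18 alternatives each. Tlr5, the receptor of bacterial flagellin, rose after DNMT3a siRNA by 0.96 ± 0.16 from 3.89 ± 0.687 CPM (adjusted p = 0.0051) and was lower after DNMT3b than after DNMT3a siRNA (log2 -1.13 ± 0.17, adjusted p = 0.0030), in all 18 alternatives each. Myd88, an adaptor of Toll-like and interleukin-1 receptors, fell after DNMT3a siRNA by 0.37 ± 0.09 (adjusted p = 0.0246) and missed the threshold without any 1 of the DNMT3a libraries, control 2 or control 3 (up to 0.0783). With the library number as a block, 1 gene of this list rose and 5 fell after DNMT3a siRNA, against 1 and 2 without it. The other 3 were Il1r1, Tnfrsf1b and Ddx58, named after their values were seen, at -0.39 ± 0.14, -0.38 ± 0.12 and -0.49 ± 0.33 on the log2 scale (adjusted p = 0.106, 0.0734 and 0.431, and 0.0375, 0.0246 and 0.0347 with the block). After DNMT3b siRNA 0 rose and 1 fell, and 0 and 5 without all libraries numbered 2. Tlr6 was lower after DNMT3b than after DNMT3a siRNA (log2 -1.07 ± 0.23, adjusted p = 0.0159), which was lost without DNMT3a 1, DNMT3b 1 or DNMT3b 3 (up to 0.0700).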

How the data were processed

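Poly(A) RNA of 9 libraries was sequenced, 3 for each siRNA. The authors deposited raw read counts per gene, 43629 genes and 5 summary lines a table, and the summary lines (49.2% to 56.2% of each total, mostly reads that were not unique) stayed out of library sizes and tests. Reads that were not unique were 36.6% to 40.1% after DNMT3a siRNA and 41.3% to 42.5% in the other libraries. FastQC, TopHat2, HTSeq and mm10/GRCm38 are named per the submitters' processing notes. Neither the annotation release nor the strand setting is given in the sources used here. Gene symbols and coordinates came from the GENCODE mouse annotation of GRCm38. The members and lists were chosen with earlier results of these data known.

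Low genes were removed with filterByExpr at a minimum count of 10 and a minimum total of 15, leaving 16561 for testing. All 9 libraries entered 1 quasi-likelihood fit on the deposited counts (edgeR 4.0.16 in R 4.3.3) with TMM scaling, robust fitting and no term but group, so that 6 residual degrees of freedom remained. Contrasts were tested two-sided with Benjamini-Hochberg adjustment over all 16561 genes at 0.05, and the procedure was tested on simulated data. Each standard error is the absolute log2 fold change divided by the square root of F. The labels do not say that libraries of a group came from separate cultures, so the p-values speak only of the spread between these libraries, which may be technical. All replicate pairs differed by more than counting noise (chi-square over its degrees of freedom 6.94 to 65.0).

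Named were the 10 members, Dnmt3a and Dnmt3b, in each comparison the up to 4 changed genes per list that had the lowest adjusted p, and the 3 genes most like each member by Pearson's r of log2 CPM (prior count 2). Other names were picked with their values in view. Same-numbered control and DNMT3a libraries deviated together from their group means (r = 0.434, 0.513 and 0.459). The fit as reported does not use this pairing. For that comparison a fit blocked on the number is therefore quoted where it moved a call, or a list's count by over 1.5 times. The 18 alternatives were DESeq2 1.42.0, limma-voom (limma 3.58.1), other filters and scalings, only the groups compared, the block, leaving out each library, and, chosen after seeing the data, leaving out all libraries numbered 2.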

Additional observations from a re-analysis of the deposited data

How the results depend on the processing

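In these alternatives directions turned only among differences that did not pass the test as reported. Cxcl1 after DNMT3a siRNA ran from -0.072 to 0.262 over the left-out libraries and Ptgs2 from -0.585 to 0.132. After DNMT3b siRNA, Cxcl12 was -0.214 without all libraries numbered 2 and ran from -0.127 to 0.328 over the left-out libraries, and Ptgs2 ran from -0.011 to 0.684. Il6 between the knockdowns was 0.004 with limma-voom and ran from -0.319 to 0.189. Of the other genes named, Rarres2 after DNMT3a siRNA was 0.025 with library size alone, 0.112 with limma-voom, 0.221 without all libraries numbered 2, and -0.352 to 0.374 over the left-out libraries. Over these, after DNMT3b siRNA, Rarres2 ran from -0.052 to 0.673, Ereg from -0.180 to 0.063 and Rassf6 from -0.101 to 0.342. Between the knockdowns Il6ra was -0.145 without all libraries numbered 2 and ran from -0.212 to 0.179, and Lifr ran from -0.167 to 0.035. Of the genes named for the block, Ccl5 after DNMT3a siRNA ran from -0.439 to 0.729 over the left-out libraries. Ccr1 after DNMT3b siRNA was 0.048 with limma-voom and ran from -0.851 to 0.102. Between the knockdowns Cxcl10 ran from -0.111 to 0.646 and Tnfrsf1b from -0.046 to 0.176, and Tnfrsf1b was -0.076 without all libraries numbered 2. The causes were not tested. For the 10 genes, 1 to 3 changed after DNMT3a siRNA over the left-out libraries (2 in the fit as reported). Genes changed after DNMT3a siRNA numbered 1671, 946 with only the 2 groups compared, and 868 (without DNMT3a 1) to 1839 (without control 2). After DNMT3b siRNA they were 934, 1715 by DESeq2 and 287 (without DNMT3b 3) to 1781 (without control 2), and between the knockdowns 1582 and 524 (without DNMT3b 2) to 1962 (without control 2).

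Pathway list genes changed after DNMT3a siRNA numbered 17, 26 by DESeq2, 11 with only the 2 groups compared, and 9 (without control 3) to 19 (without control 1). After DNMT3b siRNA they were 9, 21 by DESeq2, 17 with no filter, 20 without all libraries numbered 2, and 5 (without DNMT3b 3 or control 3) to 19 (without control 2). Between the knockdowns they were 19, and 10 (without DNMT3a 1 or DNMT3b 2) to 21 (without control 1). With the replicate number as a block, these list counts were 32, 28 and 37, and the genes changed were 1801 after DNMT3b siRNA and 2513 between the knockdowns. For libraries of the DNMT3b group, same-number correlations were 0.212, 0.101 and 0.0334 with controls and 0.161, 0.0776 and 0.0414 with DNMT3a libraries. Those between different numbers ran from -0.156 to 0.105 with controls and from -0.125 to 0.0780 with DNMT3a libraries. The labels do not say what the number marks, so whether these libraries are paired is not known. After DNMT3b siRNA the block gave 1 rise and 1 fall among the chemokine ligands, 1 and 1 among their receptors, 3 and 4 among the IL-6 receptor and signalling genes, 2 and 0 in the prostanoid list, 1 and 5 in the complement list, 4 and 0 in the NF-kB list, 0 and 5 among the inducers and 4 and 0 among the endothelial markers. The ligand that fell was Ccl5, at -1.65 ± 0.56 without the block (adjusted p = 0.116, and 0.00953 with it). Between the knockdowns it gave 8 higher and 2 lower in the complement list. Of the 10 genes, the calls after DNMT3a siRNA did not change with the block. The block ended the call of Cfi and turned Rarres2 after DNMT3a siRNA to 0.029. Mthfd2l between the knockdowns (adjusted p = 0.0705) passed with the block (0.0482) and with DESeq2. Depth limits Cxcl5 and Cxcl2, with 43 and 34 counts in all, and neither was tested.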
